A study of Homo sapiens with 6 samples.

Results

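Transcripts of 9 genes around the FLT3-STAT5 signalling axis were examined in Molm13 cells, a human acute myeloid leukemia line, with and without a knockout of COX4I1, a subunit of mitochondrial Complex IV. The genes were SOCS1, SOCS2, SOCS3, CISH, PIM1, PIM2, STAT5A, STAT5B and JAK2, found by symbol among the 19845 symbols of the count table, where all 9 were present. SOCS1 was selected on its own CPM in this comparison, where it fell, so its difference is described without a test, whereas the others were chosen as its pathway partners with earlier results of these data known. RNA-seq covered 6 cultures of Molm13 cells that express Cas9, selected with puromycin at 1.0 µg/ml after lentiviral delivery of a guide. Of these, 3 carried sgCtrl and 3 carried sgCOX4I1, each with a guide of its own. All cultures thus share Cas9, the lentiviral vector and the selection, the cells come from 1 line, and the time between transduction and RNA extraction is not given in the sources used here. Nothing says that the cultures were set up separately beyond their guides, so p-values measure the spread between these 6 libraries.

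FLT3 is a receptor tyrosine kinase of myeloid progenitors, and Molm13 carries an internal tandem duplication in it that keeps the kinase active. Active FLT3 leads to phosphorylation of STAT5A and STAT5B, which enter the nucleus as dimers and switch on genes that include CISH, SOCS2 and the survival kinases PIM1 and PIM2. Proteins of the SOCS family, to which CISH belongs, feed back on the pathway: they bind phosphorylated receptors or kinases, and their SOCS box recruits a ubiquitin ligase. SOCS1 and SOCS3 can in addition block the catalytic site of JAK kinases such as JAK2, and SOCS1 is best known as an interferon-induced brake on interferon signalling.

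The libraries held between 17241014 and 30861943 counts, and levels are given as CPM, counts scaled to a common library size after TMM normalization. COX4I1 itself was at 513, 502 and 463 CPM in sgCtrl #1, #2 and #3 and at 132, 378 and 133 CPM in sgCOX4I1 #1, #2 and #3, so the sgCOX4I1 #2 library kept most of the transcript. All 12 markers of monocytic leukemia that were examined passed the expression filter, with a summed level of 3262 to 4183 CPM in sgCtrl and 3786 to 5099 CPM in sgCOX4I1. Much of that sum was LYZ, the lysozyme gene, at 1149 to 2099.5 CPM in sgCtrl and 2026 to 3104 CPM in sgCOX4I1, while MPO, in the same list, was at 219 to 235 CPM in sgCtrl and 105 to 117 CPM in sgCOX4I1. Among markers of other cells, 1 of 6 for T and NK cells and 1 of 5 for B cells passed it, namely NKG7 and PAX5, with the T cell gene CD3D at 0 in every library and the B cell gene MS4A1 at 0 in 5 of 6. The T and NK list summed to 54.9 to 56.4 CPM in sgCtrl and 61.0 to 65.6 CPM in sgCOX4I1, nearly all of it NKG7, and its part in the results was not tested. The B cell list summed to 16.85 to 19.6 CPM in sgCtrl and 19.42 to 21.75 CPM in sgCOX4I1, nearly all of it PAX5. None of the 7 erythroid and megakaryocyte markers passed the filter, 6 of them at 0, and 3 of 7 epithelial and stromal markers did. Of the latter, KRT18 was highest, at 8.60 to 13.8 CPM in sgCtrl and 6.86 to 10.2 CPM in sgCOX4I1, and EPCAM was at 0.

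SOCS1 was the member that differed most. It was counted at 16.9, 15.2 and 17.5 CPM in sgCtrl #1, #2 and #3 and at 6.10, 8.95 and 4.89 CPM in sgCOX4I1 #1, #2 and #3. All 3 sgCOX4I1 libraries were below all 3 sgCtrl libraries, as for 10.4% of all genes tested. The sgCOX4I1 mean of 6.65 ± 2.08 CPM was 40.2% of the sgCtrl mean of 16.5 ± 1.24 CPM (SD, n = 3 libraries per group). The log2 fold change was -1.34 (standard error 0.18), given as a description because SOCS1 was chosen for it. In bulk RNA, less transcript in each cell and fewer cells that express it cannot be told apart. For background, 8 of the 11861 genes tested (0.0674%) were called and at least 2-fold lower, and since SOCS1 was chosen for its fall nothing is read from its being among them. Next to it by size were TBC1D30 (-2.61) and FADS2 (-1.16), and next to the 2-fold line were ACY3 (-1.04) inside it and C10orf10 (-0.99) outside.

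The sgCOX4I1 libraries did not carry the fall of SOCS1 equally. They held 36.9%, 54.2% and 29.6% of the sgCtrl mean in #1, #2 and #3, beside 26.7%, 76.7% and 27.0% for COX4I1. The library that kept most COX4I1 transcript, #2, thus also kept most SOCS1 transcript, although its SOCS1 level was well under every sgCtrl library. Libraries #1 and #3 were alike in COX4I1 (26.7% and 27.0%) but not in SOCS1 (36.9% and 29.6%). The paper reports that COX4I1 protein was reduced in sgCOX4I1 cells, by western blot with independent guides and by mass spectrometry of mitochondrial proteins. The protein left in each of these cultures was not measured here, so whether SOCS1 follows the extent of the knockout was not tested. Counting error alone gave SOCS1 in sgCOX4I1 #2 a 95% Poisson interval of 7.59 to 10.5 CPM, above those of #1 (5.12 to 7.21 CPM) and #3 (4.15 to 5.73 CPM). The lowest sgCtrl interval, that of #2, began at 13.4 CPM. Replicates differed by more than counting error, so these intervals are too narrow to show that libraries differ. They also rest on the values by which SOCS1 was chosen. Relative to their means, the sgCOX4I1 libraries spread by 31.4% (coefficient of variation) and the sgCtrl libraries by 7.48%. Without sgCOX4I1 #2 the log2 fold change of SOCS1 was -1.60, and without sgCOX4I1 #3 it was -1.15.

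**Figure D1:**
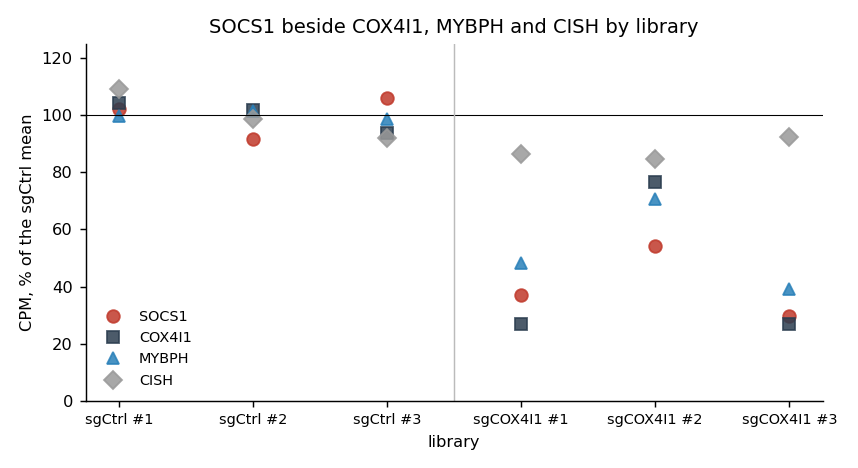
Level of SOCS1, COX4I1, MYBPH and CISH in each of the 6 libraries (x axis), as CPM in percent of the gene's sgCtrl mean (y axis, from 0), with 1 point per gene and library. SOCS1 lies at 36.9%, 54.2% and 29.6% in sgCOX4I1 #1, #2 and #3, with #2 highest as for COX4I1 and MYBPH, whereas CISH lies between 84.6% and 92.5% in these libraries.

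The genes whose profile over the 6 libraries was most like that of SOCS1 were sought among the 9930 tested genes that averaged 5 CPM or more. Likeness was the root-mean-square difference of log2 CPM, each gene first set to 0 at its own sgCtrl mean. The nearest was MYBPH, which encodes a myosin-binding protein, at 0.28 (the median over all genes compared was 0.99). It was at 22.3, 22.8 and 22.1 CPM in sgCtrl #1, #2 and #3 and at 10.8, 15.8 and 8.76 CPM in sgCOX4I1 #1, #2 and #3. Its order among the sgCOX4I1 libraries was that of SOCS1, with #2 highest and #3 lowest. COX4I1 came next at 0.30, followed by ACY3 (0.32), ARRDC4, a relative of the glucose-responsive gene TXNIP (0.33), and MPO, the granule enzyme of myeloid cells (0.34). None of the pathway partners was near: PIM2, the closest of them, ranked 363 at 0.78, and SOCS2 ranked 1020 at 0.86. With every gene set to 0 at its sgCtrl mean, likeness rests largely on the fall by which SOCS1 was chosen. The distance of the partners thus restates that they did not fall as SOCS1 did and is no independent result.

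SOCS1 lies on the minus strand of chromosome 16 from 11254417 to 11256204 in GRCh38 (ENSG00000185338.7), as a single merged exon that shares no exonic base with another annotated gene. COX4I1, on the other arm of the same chromosome, runs from 85798633 to 85807068 on the plus strand. The bases before the start of SOCS1 are shown because it is the member that fell, with capitals for a match to GAAA repeated after a gap of 2 bases, a form of the site that interferon regulatory factors bind. The window is chr16:11256205-11256454 on the minus strand in GRCh38.p14, from RefSeq, and ends just before the annotated start.
SOCS1 promoter: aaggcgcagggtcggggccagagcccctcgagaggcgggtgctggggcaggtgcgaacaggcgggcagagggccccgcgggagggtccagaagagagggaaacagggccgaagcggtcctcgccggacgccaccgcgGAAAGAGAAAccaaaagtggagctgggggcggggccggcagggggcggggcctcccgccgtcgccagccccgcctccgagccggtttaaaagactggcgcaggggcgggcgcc
This repeated GAAA, searched on both strands after the window had been read, was in 3.57% of the 35116 RefSeq windows of 300 bases (250 before and 50 after each start). TTCNNNGAA, the palindrome that STAT dimers bind and that reads the same on both strands, was not in the window of SOCS1, and was in 7.66% of all windows. A match describes letters and no binding was measured, and the absence of one says nothing about sites elsewhere.

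Among the members with a window, CISH alone held the STAT palindrome, with 4 matches. They are shown with 8 bases on either side, in capitals, on the minus strand of chromosome 3 in GRCh38.p14 from RefSeq, and the lines of the first pair share bases with each other, as do those of the last pair.
CISH site at chr3:50611999-50612023: gccccgttTTCCTGGAAagttcttg
CISH site at chr3:50611988-50612012: ctggaaagTTCTTGGAAatctgtca
CISH site at chr3:50611887-50611911: gcccgcggTTCTAGGAAgacgctgc
CISH site at chr3:50611870-50611894: gacgctgcTTCCGGGAAgggctgga
The matches begin 241, 230, 129 and 112 bases before the start. Windows were given for 8 of the 9 members. SOCS2 had none, so it was not searched. Of all 27305 genes with a window, 9.38% had at least 1 match. The variant with a gap of 4 bases between TTC and GAA was in 1 of the 3 windows of STAT5A and in 6.44% of all windows.

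CISH, a classical STAT5 target that lies on the minus strand of chromosome 3 from 50606489 to 50611774, was at 31.3, 28.3 and 26.4 CPM in sgCtrl #1, #2 and #3 and at 24.8, 24.2 and 26.5 CPM in sgCOX4I1 #1, #2 and #3. The groups overlapped, since sgCOX4I1 #3 was just above sgCtrl #3. Its fitted difference was -0.18 on the log2 scale (standard error 0.098, 95% interval -0.39 to 0.03, adjusted p = 0.359 from the quasi-likelihood test in edgeR, with Benjamini-Hochberg adjustment over all genes). Of its exonic bases, 4.31% also lie in MAPKAPK3 on the opposite strand.

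SOCS2, another STAT5-driven inhibitor, lies on chromosome 12 from 93569814 to 93583487 (plus strand), and 4.28% of its exonic bases are also in SOCS2-AS1 on the opposite strand. It has 2 annotated pseudogenes, with which its reads could have been shared. SOCS2, the most abundant member, was at 212, 194 and 183 CPM in sgCtrl #1, #2 and #3 and at 192, 157 and 162 CPM in sgCOX4I1 #1, #2 and #3. The sgCOX4I1 #1 library lay within the sgCtrl range and the other two lay below it. Its log2 fold change was -0.21 (standard error 0.089, 95% interval -0.40 to -0.02, adjusted p = 0.245 from the same edgeR test), so SOCS2 was not called. SOCS3, which STAT3 also induces, lies on the minus strand of chromosome 17 from 78356778 to 78360077 and was at 6.59, 8.53 and 9.48 CPM in sgCtrl #1, #2 and #3 and at 6.90, 7.96 and 6.91 CPM in sgCOX4I1 #1, #2 and #3. All 3 sgCOX4I1 values lay inside the sgCtrl range, with a log2 fold change of -0.18 (standard error 0.16, 95% interval -0.54 to 0.17, adjusted p = 0.615 from the edgeR test).

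Ratios of counts within a library do not depend on library scaling, and they set SOCS1 apart from each of its partners in level. SOCS1 had 54.0, 53.6 and 66.5 counts for every 100 counts of CISH in sgCtrl #1, #2 and #3, and 24.6, 36.9 and 18.5 in sgCOX4I1 #1, #2 and #3. Against SOCS3, the other SOCS protein that blocks the JAK catalytic site, it had from 178 to 256 counts for every 100 in sgCtrl and from 70.8 to 112 in sgCOX4I1. SOCS1 was therefore the more counted of that pair in every sgCtrl library and in sgCOX4I1 #2, and SOCS3 was in sgCOX4I1 #1 and #3. For each of the 8 partners the ranges of the ratio did not overlap between groups. These ratios rest on the fall by which SOCS1 was chosen and are no independent evidence of it.

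The PIM genes encode serine/threonine kinases that promote survival and growth downstream of STAT5. PIM2 lies on chromosome X from 48913182 to 48919024 (minus strand) and PIM1 on chromosome 6 from 37170152 to 37175428 (plus strand). PIM2 was at 25.6, 27.4 and 31.2 CPM in sgCtrl #1, #2 and #3 and at 23.2, 24.4 and 21.5 CPM in sgCOX4I1 #1, #2 and #3. All sgCOX4I1 libraries were below all sgCtrl libraries, a pattern shown by 10.4% of all genes tested in this direction. For PIM2 the log2 fold change was -0.29 (standard error 0.10, 95% interval -0.51 to -0.07, adjusted p = 0.171 from the edgeR test), the smallest adjusted p among the 8 partners, and it was not called.

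Relative to its mean, PIM1 had the widest spread among the sgCOX4I1 libraries after SOCS1, with a coefficient of variation of 26.4%. It was at 29.5, 30.1 and 38.2 CPM in sgCtrl #1, #2 and #3 and at 23.9, 40.5 and 30.4 CPM in sgCOX4I1 #1, #2 and #3. Both the lowest and the highest PIM1 values of the 6 libraries were in the sgCOX4I1 group. For PIM1 the log2 fold change was -0.05 (standard error 0.16, 95% interval -0.39 to 0.29, adjusted p = 0.903 from the edgeR test), and its sign changed when sgCtrl #3 or sgCOX4I1 #1 was left out, to 0.08 and 0.11.

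STAT5A, 1 of the 2 STAT5 transcription factors, was at 38.6, 37.0 and 38.9 CPM in sgCtrl #1, #2 and #3 and at 40.9, 43.5 and 44.4 CPM in sgCOX4I1 #1, #2 and #3. The groups did not overlap, which held for 11.2% of all genes tested in this direction. Its log2 fold change was 0.17 (standard error 0.081, 95% interval -0.004 to 0.35, adjusted p = 0.30 from the edgeR test), and STAT5A was not called. STAT5B was at 52.2, 60.4 and 62.6 CPM in sgCtrl #1, #2 and #3 and at 59.9, 56.0 and 57.1 CPM in sgCOX4I1 #1, #2 and #3. All 3 sgCOX4I1 values lay within the sgCtrl range (log2 fold change -0.02, standard error 0.085, 95% interval -0.20 to 0.16, adjusted p = 0.941 from the edgeR test), and the sign changed in 3 of the 6 fits that each left out a library. The STAT5 genes are neighbours on chromosome 17 (STAT5A from 42287547 to 42311943 on the plus strand, STAT5B from 42199176 to 42288633 on the minus strand) with very similar coding sequences, and 6.50% of the exonic bases of STAT5A and 3.43% of those of STAT5B lie in the other gene on the opposite strand, so reads could have been lost or split between them. STAT5A had from 61.2 to 74.0 counts for every 100 counts of STAT5B in sgCtrl and from 68.2 to 77.8 in sgCOX4I1, ranges that overlap.

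JAK2, the tyrosine kinase that serves many cytokine receptors and is a direct target of SOCS1, lies on chromosome 9 from 4984390 to 5129948 (plus strand) and was at 25.9, 23.7 and 28.3 CPM in sgCtrl #1, #2 and #3 and at 27.5, 26.9 and 28.2 CPM in sgCOX4I1 #1, #2 and #3. The sgCOX4I1 values were close together and inside the sgCtrl range. For JAK2 the log2 fold change was 0.08 (standard error 0.097, 95% interval -0.12 to 0.29, adjusted p = 0.705 from the edgeR test).

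**Figure D2:**
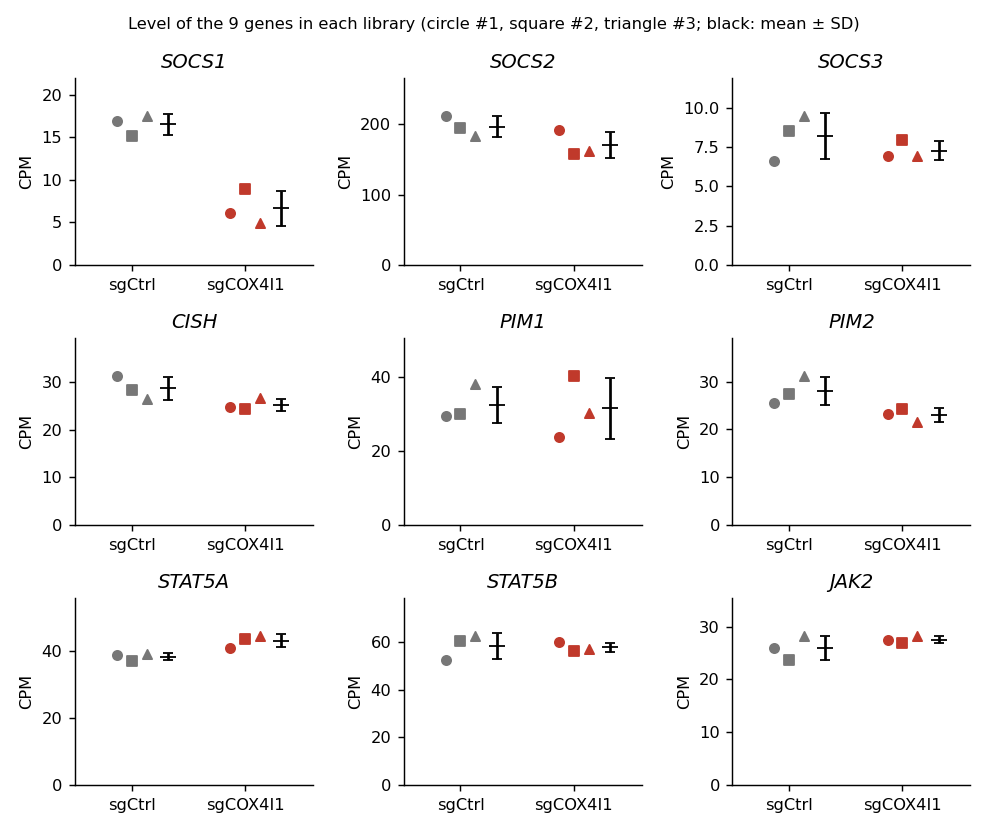
CPM of the 9 genes (y axes from 0, on a scale of their own) in the 3 sgCtrl and 3 sgCOX4I1 libraries (x axis), with circles, squares and triangles for guides #1, #2 and #3 and the mean ± SD in black. SOCS1, PIM2 and STAT5A are the genes whose groups do not overlap, a pattern shown by 21.6% of all genes tested. SOCS1, which was chosen for its fall, is alone in being shifted by more than 2-fold.

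Of the 8 partners of SOCS1, 0 had an adjusted p under 0.05 by edgeR, DESeq2 or limma-voom, where 2.08% of all genes tested did by edgeR. At an unadjusted p under 0.05 there were 2, SOCS2 and PIM2, where 17.3% of all genes tested lay. Non-overlapping groups were found for 2 of the 8, against 21.6% of all genes, and 6 of the 8 were below 0, against 50.6%. In the median, the log2 fold change of the 8 was -0.12, beside -0.002 over all genes. Their 95% intervals ran from 0.689-fold for SOCS3 at the lowest to 1.27-fold for STAT5A at the highest, so each of the 8 intervals excluded a change of 2-fold, and 6 included 0 on the log2 scale. Smaller differences of the partners remain within these intervals, and those of SOCS2 and PIM2 lay wholly below 0. With 3 libraries against 3, a two-sided exact permutation test of a single gene cannot go below p = 0.1, a limit that does not apply to the edgeR calls.

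**Figure D3:**
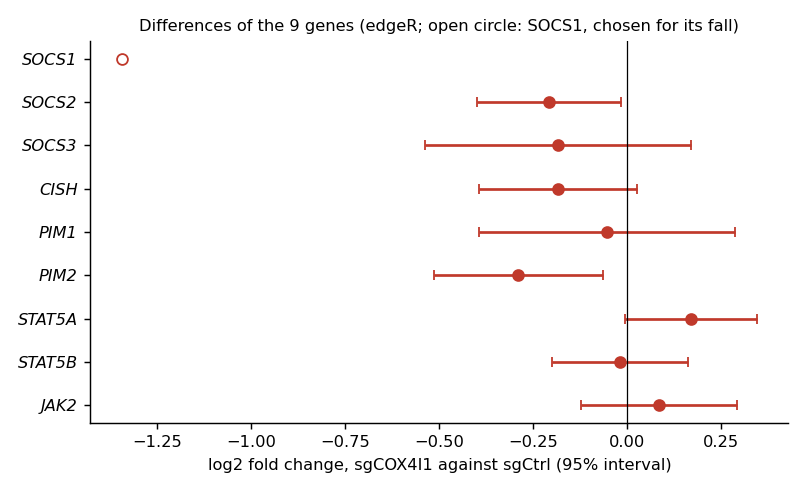
Log2 fold change of the 9 genes in sgCOX4I1 against sgCtrl from edgeR (x axis), with 95% intervals for the 8 partners and an open circle without an interval for SOCS1, which was chosen for its fall. The 8 partners lie between -0.29 for PIM2 and 0.17 for STAT5A, and SOCS1 lies at -1.34.

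Per kilobase of merged exon, the members could be set in an order of level. In sgCtrl, SOCS2 came first at 30.3 CPM per kb, followed by PIM1 (10.8), PIM2 (10.2) and SOCS1 (9.24), and neighbours among PIM1, PIM2 and SOCS1 overlapped in range. STAT5A (5.98), CISH (5.67), STAT5B (4.82), JAK2 (3.28) and SOCS3 (3.00) followed, with overlapping ranges for STAT5A and CISH and for JAK2 and SOCS3. In sgCOX4I1, SOCS1 was at 3.72 CPM per kb and took seventh place. Its range there, 2.74 to 5.01, held those of JAK2 and STAT5B and overlapped those of CISH and SOCS3. The merged exons include every annotated transcript, so genes with long alternative exons appear lower on this scale.

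The wider pathway was described with 9 lists, in which 111 genes were tested. At an unadjusted p under 0.05 in the edgeR test lay 27 of them, beside 17.3% of all genes tested. That share is the one to set beside the counts of each list below. Beyond the members, 3 genes fell and 1 rose at an adjusted p under 0.05 in the edgeR test, beside 1.02% and 1.06% of all genes tested. DESeq2 and limma-voom each called 5, the same 4 and LTB, so LTB was the only call they added, and the lists with 0 calls by edgeR also had 0 by these tools. ID1, an inhibitor of differentiation that STAT5 and BMP signalling can induce, was at 2.34, 3.09 and 1.57 CPM in sgCtrl #1, #2 and #3 and at 6.06, 5.87 and 4.86 CPM in sgCOX4I1 #1, #2 and #3, and it rose by 1.26 on the log2 scale (standard error 0.24, adjusted p = 0.0196 from edgeR). IRF7, the regulator of type I interferon genes, averaged 30.1 ± 2.78 CPM in sgCtrl and fell to 20.6 ± 1.86 CPM in sgCOX4I1 (SD, n = 3 libraries per group). IER2, an immediate-early gene, fell to 255 ± 6.48 CPM in sgCOX4I1 from an sgCtrl mean of 312 ± 4.54 CPM. DUSP7, a phosphatase of ERK, was at 171 ± 9.86 CPM in sgCtrl and fell to 134 ± 10.5 CPM. Of the 6 fits that each left out a library, ID1 was called in 4, IRF7 in 3, and DUSP7 and IER2 in 1 each, and 0 genes of the lists were called without sgCtrl #2 or without sgCOX4I1 #2 and 1 without sgCOX4I1 #3.

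The receptor and its adaptors gave 0 calls among 18 tested genes by edgeR. At an unadjusted p under 0.05 lay 3, beside 17.3% of all genes tested, and the median of the list was 0.03 on the log2 scale. FLT3 was at 222, 204 and 199 CPM in sgCtrl #1, #2 and #3 and at 193, 157 and 184 CPM in sgCOX4I1 #1, #2 and #3. These groups did not overlap, a pattern shown by 10.4% of all genes tested in this direction. The log2 fold change of FLT3 was -0.23 (standard error 0.086, adjusted p = 0.19 from edgeR), and FLT3 was not called. The adaptor GAB2 was at -0.21 (adjusted p = 0.196) and the phosphatase PTPN11, which transmits the signal to RAS, at 0.20 (adjusted p = 0.196), so the proximal genes with the smallest p lay on either side of 0.

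Among the other 5 SOCS and PIM genes, 0 were called and 0 had an unadjusted p under 0.05 by edgeR, with log2 fold changes from -0.07 to 0.15. SOCS7, SOCS5 and SOCS4 were at 0.14, 0.15 and 0.11. Among 7 other JAK and STAT genes, 0 were called and 0 had an unadjusted p under 0.05 by edgeR. The kinase TYK2 was at -0.14, STAT2 at -0.17 and STAT3 at 0.09 on the log2 scale. Other negative regulators of JAK-STAT signalling, mostly phosphatases and PIAS proteins, gave 0 calls among 15 and 3 at an unadjusted p under 0.05. PTPN2, a phosphatase that acts on JAK1, was at -0.24 (adjusted p = 0.114 from edgeR), the adaptor-like SLA at 0.24 and PIAS3 at -0.21.

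Among 14 tested STAT5 targets outside the members, ID1 was the 1 gene called and the median log2 fold change was 0.06. At an unadjusted p under 0.05 lay 7 of them, beside 17.3% of all genes tested. LTB, the cytokine lymphotoxin beta, was at -0.65 (adjusted p = 0.0527 from edgeR) and CCND1, a cyclin of the G1 phase, at 0.67 (adjusted p = 0.107). Cytokine receptors that use JAK2 or STAT5 gave 0 calls among 13 tested and 4 at an unadjusted p under 0.05. IFNGR1, a chain of the interferon-gamma receptor, was at 0.31 (adjusted p = 0.0979 from edgeR), EPOR, the erythropoietin receptor, at -0.29, and OSMR, with a mean under 1 CPM in either group, at -1.13 (standard error 0.43, adjusted p = 0.196). Of the 6 genes for the ligase that the SOCS box recruits, 0 were called and 1 had an unadjusted p under 0.05, the scaffold CUL5 at 0.27. UBE2F and RNF7, which help to attach NEDD8 to that scaffold, were at 0.19 and -0.10.

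The ERK arm of the receptor gave 2 calls among 21 tested genes, both lower (DUSP7 and IER2), with a median of 0.006 on the log2 scale. At an unadjusted p under 0.05 lay 8 of them, beside 17.3% of all genes tested. ETV4, a transcription factor induced by ERK, was at -0.37 (adjusted p = 0.105 from edgeR). Targets of interferon-gamma gave 1 call among 14 tested, the fall of IRF7, and 3 at an unadjusted p under 0.05. Of the 14, 3 were below 0 and 11 above, where 50.6% of all genes tested lay below 0. Their median was 0.12, beside -0.002 over all genes, and the list was not tested as a set. CIITA, the interferon-induced master regulator of MHC class II genes, was at 6.0 ± 0.88 CPM in sgCtrl and 9.0 ± 1.6 CPM in sgCOX4I1 (SD, n = 3 libraries each, log2 fold change 0.59, adjusted p = 0.0979 from edgeR), and IFI30 was at 0.99 (adjusted p = 0.20) from under 1 CPM.

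**Figure D4:**
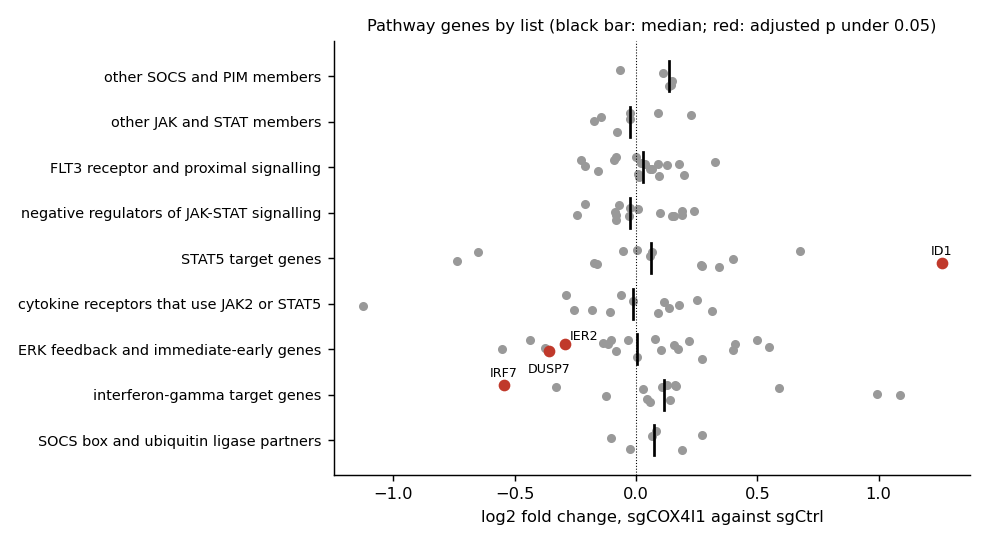
Log2 fold change in sgCOX4I1 against sgCtrl (x axis) of each tested gene in the 9 pathway lists (rows, spread vertically for legibility), with red for an adjusted p under 0.05 and a black bar at the median of each list. The called genes are ID1 at 1.26 and DUSP7, IER2 and IRF7 at -0.36, -0.29 and -0.55, and the medians lie between -0.03 and 0.14.

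The genes around SOCS1 were also examined. The 10 nearest tested protein-coding genes, 5 on each side, reached 485 kb towards lower and 578 kb towards higher coordinates of chromosome 16. Of these, 0 were called by edgeR and 3 had an unadjusted p under 0.05, beside 17.3% of all genes tested. Below 0 were 4, beside 50.6% of all genes tested, and the median was 0.05 on the log2 scale. DESeq2 and limma-voom also called 0 of the 10. The nearest of them, CLEC16A, 72.2 kb away, was at 37.8 ± 2.28 CPM in sgCtrl and 33.9 ± 3.19 CPM in sgCOX4I1 (SD, n = 3 libraries each, log2 fold change -0.16, adjusted p = 0.425 from edgeR), and LITAF, the nearest on the other side, was at 0.10 (adjusted p = 0.55). CIITA, already described, lies 311 kb from SOCS1, with its difference above 0. TVP23A was at -1.19 with a standard error of 0.51 (adjusted p = 0.237), with a mean under 1 CPM in either group. Over the 549 tested protein-coding genes of chromosome 16, SOCS1 included, 12 were called (2.19%, beside 2.08% of all genes tested) and the median was -0.04.

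**Figure D5:**
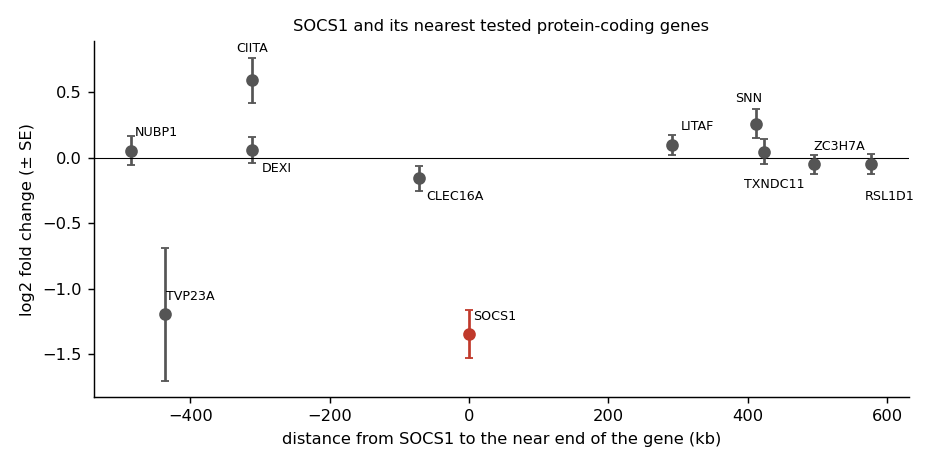
Log2 fold change in sgCOX4I1 against sgCtrl ± SE (y axis) of SOCS1, in red at 0, and of its 10 nearest tested protein-coding genes against the distance from SOCS1 to their near end in kb (x axis). SOCS1 lies at -1.34 and CLEC16A, 72.2 kb away, at -0.16.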

How the data were processed

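RNA-seq of 3 sgCtrl and 3 sgCOX4I1 cultures of Cas9-expressing Molm13 cells was analysed. The authors deposited 1 table of raw counts per gene symbol, without normalization, and its 6 columns were matched to samples by letter (C or K) and guide number. The methods name Trimmomatic, Bowtie2 and RSEM, whereas the submitters' processing notes name STAR 2.6.0a and GRCh38, and the column names point to STAR and marked duplicates. The library kit was directional, and whether strand was used in counting is not given in the sources used here.

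Counts were fitted in R 4.3.3 with edgeR 4.0.16 (TMM, filterByExpr, quasi-likelihood test, no covariates) and adjusted by the Benjamini-Hochberg method over 11861 genes, and all 9 members passed the filter. A gene was called when its adjusted p was under 0.05. In simulated counts of 11780 genes for this comparison, 193 of 200 genes altered by 3-fold were called by edgeR, as were 9 unaltered ones. Changes as small as those of the partners of SOCS1 were not simulated, so this does not tell how often such changes are missed. Replicates differed by more than sampling noise (chi-square over its degrees of freedom between 10.6 and 26.6). Per-library log2 values used a prior count of 2. Alternatives were DESeq2 1.42.0, limma-voom (limma 3.58.1), library size without TMM, filters on counts, the replicate number as a block, and each library left out. Poisson intervals cover counting error only. Gene models were from GENCODE 44, and promoter windows from RefSeq on GRCh38.p14.

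The members, lists and tests were chosen with earlier results of these data known. A gene of these lists is not reported here. Named genes were the members, COX4I1, the 3 genes of smallest p in each list, up to 5 tested neighbours on each side of SOCS1 and the 5 genes most like SOCS1 in profile. Genes bordering SOCS1 and the 2-fold line in the order of falls were named after their values were seen. So were the markers LYZ, CD3D, MS4A1, NKG7, PAX5, KRT18 and EPCAM.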

Additional observations from a re-analysis of the deposited data

How the results depend on the processing

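The log2 fold change of SOCS1 lay between -1.60 and -1.15 in the 12 alternatives, and both ends came from fits that left a library out. Every alternative reuses libraries of the comparison by which SOCS1 was chosen, so this range is no independent evidence of its fall. Of its 8 partners, 0 were called with each library left out, and 1 (SOCS2, adjusted p = 0.0238 from edgeR) was called with the replicate number as a block. Over the 9 lists, the 4 calls became 7 without a count filter, 20 under the replicate block and from 0 to 5 with a library left out. Over all genes, the 247 calls became 456 by DESeq2, 537 without a count filter, 1408 under the replicate block and from 24 (without sgCtrl #2) to 561 (without sgCtrl #1) with a library left out. Same-numbered libraries deviated from their group means with correlations of 0.38, -0.02 and 0.29 across genes for #1, #2 and #3. For different numbers the correlations ran from -0.38 (sgCtrl #3 with sgCOX4I1 #1) to 0.13 (sgCtrl #3 with sgCOX4I1 #2). Libraries #1 and #3 were thus more alike within a number than across numbers. The numbers share no stated origin, so the main fit has no block, and whether the libraries are paired was not tested. In the block fit SOCS1 was at -1.36. With a library left out, PIM1 ran from -0.26 to 0.11 and STAT5B from -0.094 to 0.036. The cause of these changes was not tested. With between 121 and 216 counts per library, SOCS3 had the widest interval among the partners.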
